A study of Mus musculus with 768 samples.

Results

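Dividing Schwann cells of the postnatal day 5 mouse sciatic nerve were picked out among singly sorted cells and described. A well was called cycling when at least 3 of 10 genes, each with 5 or more raw reads, were found in it: Mki67, Top2a, Cdk1, Birc5, Ccnb1, Ccna2, Aurkb, Ube2c, Tpx2 and Cenpf. This gate was met by 57 of the 655 wells retained, out of 768 wells in all. Retained wells had at least 1500 genes with 1 read or more, and the corner wells of both plates were left out. RNA was read with Smart-Seq2, a full-length protocol without molecular identifiers, in 2 plates of 384 wells with 1 sorted cell per well. All wells belong to a single group, P5, and each plate is a biological replicate that pooled 1 male and 1 female pup. The pups carried P0Cre, the Rosa26 eYFP reporter and a beta-actin DsRed transgene on a C57BL/6J background. The Cre is driven by the promoter of a myelin protein gene that is active in the Schwann cell lineage, and only eYFP-positive cells were sorted, so cells without this recombination could not enter. Plates and not cells are the replicates here, and every test used n = 2 plates. Reads per plate summed to 226050990 and 203322077.

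Schwann cells, the glia of peripheral nerve, divide around birth while they sort axons, and then either wrap a single large axon in myelin or ensheath groups of small ones. Division is tied to the early part of this course: D cyclins with CDK4 and CDK6 start the cycle, E2F factors switch on genes of DNA replication, and a later wave of genes serves chromosome condensation, the spindle and cytokinesis. CDK inhibitors hold the cycle back, and a cell that has begun to build compact myelin has normally left it.

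The gate genes selected the wells, so their levels are given as a description. Wells fell apart by the number of gate genes. Of the 57 cycling wells, 27 held all 10, 10 held 9, and 2 each held 8 and 7. A further 5 held 6, none held 5, 7 held 4 and 4 held 3. Just outside the gate, 21 wells held 2 gate genes, 142 held 1 and 435 held none. The summed level of the 10 genes was 514 to 890 CPM (reads of a gene per 1000000 reads of the well or of the summed wells) in the 4 wells with 3 gate genes, with a median of 750. In the 21 wells with 2 it was 57.7 to 1345 CPM, with a median of 388, so the levels on both sides of the threshold overlapped. Wells with all 10 genes lay far from it, between 4270 and 17000 CPM.

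**Figure D1:**
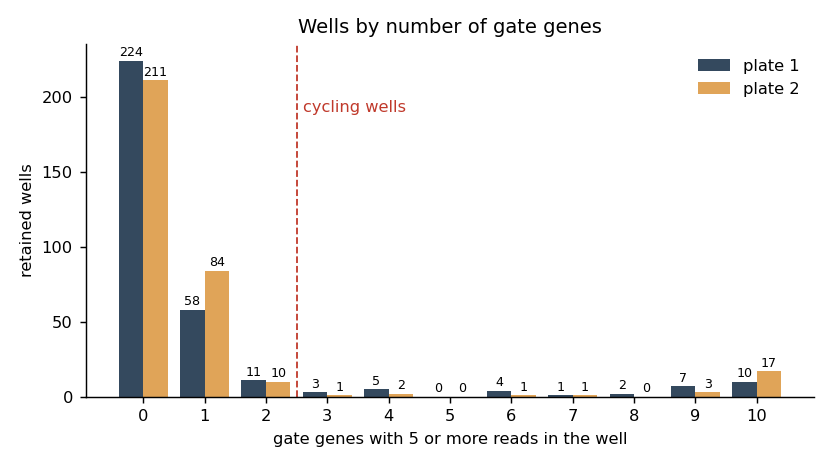
Retained wells by the number of gate genes with 5 or more reads (horizontal axis) and plate (bars, number of wells). The dashed line is the gate; to its right lie 32 wells of plate 1 and 25 of plate 2, and 10 and 17 of these hold all 10 genes.

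Among single gate genes, Birc5 (survivin, of the chromosomal passenger complex) reached 5 reads in 54 of the 57 cycling wells, the most of the 10. Cdk1, the mitotic kinase, and Cenpf, a kinetochore protein, each did so in 50. Mki67 (Ki-67, which coats mitotic chromosomes, chr7:135689784-135716361) and Ccna2 (cyclin A2) did so in 46. Top2a, the topoisomerase that untangles sister chromatids (chr11:98992943-99024189), and Tpx2, a spindle factor, did so in 45. Aurkb, the passenger kinase, did so in 43, Ube2c, a ubiquitin-conjugating enzyme of mitotic exit, in 41 and Ccnb1 (cyclin B1) in 40. Over the wells of both plates, the lowest, median and highest level of Mki67 was 0, 363 and 1471 CPM, and that of Cdk1 was 0, 1174 and 3877 CPM. No single gate gene was therefore present in every cycling well. Outside the gate, 9 of the 10 genes reached 5 reads in 0.167 to 3.18% of 598 wells. The exception was Ccna2, with 113 wells (18.9%). Ccna2 overlaps Exosc9, and the sources used here do not say that strand was used in counting, so reads of the pair cannot be told apart. Coordinates are from GENCODE vM21 (GRCm38).

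The promoters of 2 gate genes and 2 S phase genes are shown, since mitotic and replication genes are known for different motifs near their starts. RefSeq (GRCm38.p6) gave the 250 bases before and 50 after a start. Capitals mark TTTGAA (the core of the cell cycle genes homology region), CCAAT (the box bound by NF-Y) and 4 forms of the E2F letters, which are TTCCCGC or else TTGGCGC or else TTGCCGC or else TTCGCGC, read on both strands, with overlaps between motifs allowed. The gate genes shown are the first 2, in the order of the gate, whose promoter holds TTTGAA. The S phase genes shown are the 2 most abundant whose promoter holds an E2F form. These motifs were therefore fixed by the choice of the genes. Mki67 lies on the minus strand at chr7:135716330-135716629, Top2a on the minus strand at chr11:99024140-99024439, Rrm2 on the plus strand at chr12:24708004-24708303 and Rfc3, a clamp loader subunit, on the minus strand at chr5:151651159-151651458.
Mki67: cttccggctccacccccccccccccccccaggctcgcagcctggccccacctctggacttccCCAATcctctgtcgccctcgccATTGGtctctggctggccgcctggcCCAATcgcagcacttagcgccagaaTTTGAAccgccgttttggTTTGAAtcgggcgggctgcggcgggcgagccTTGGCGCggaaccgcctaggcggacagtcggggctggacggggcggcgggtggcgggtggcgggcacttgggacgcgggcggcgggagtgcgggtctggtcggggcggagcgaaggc
Top2a: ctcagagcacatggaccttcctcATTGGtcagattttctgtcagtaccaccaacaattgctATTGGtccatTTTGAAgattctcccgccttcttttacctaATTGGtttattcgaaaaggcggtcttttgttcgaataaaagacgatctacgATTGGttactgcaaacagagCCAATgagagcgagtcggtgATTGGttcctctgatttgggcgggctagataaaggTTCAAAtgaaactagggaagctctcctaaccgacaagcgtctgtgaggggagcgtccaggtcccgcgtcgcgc
Rrm2: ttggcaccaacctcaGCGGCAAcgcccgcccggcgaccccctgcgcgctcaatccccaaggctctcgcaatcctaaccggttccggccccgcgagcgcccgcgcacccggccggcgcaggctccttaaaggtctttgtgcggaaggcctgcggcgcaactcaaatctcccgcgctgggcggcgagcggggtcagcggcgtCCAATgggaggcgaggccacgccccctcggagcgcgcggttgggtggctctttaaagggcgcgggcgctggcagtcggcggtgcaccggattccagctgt
Rfc3: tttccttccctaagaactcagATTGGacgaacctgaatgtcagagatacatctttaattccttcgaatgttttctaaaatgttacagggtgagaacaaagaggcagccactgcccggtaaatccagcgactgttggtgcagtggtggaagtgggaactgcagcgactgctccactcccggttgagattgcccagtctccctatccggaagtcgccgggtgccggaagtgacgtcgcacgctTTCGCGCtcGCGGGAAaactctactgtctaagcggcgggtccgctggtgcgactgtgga

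In the Mki67 promoter TTTGAA began at -116 and -98 from the start, downstream of CCAAT letters at -188, -166 and -141, and an E2F form began at -67. In Top2a the letters of TTTGAA began at -179 and, on the opposite strand, at -23, among 6 CCAAT matches. Rrm2 held no TTTGAA, with an E2F form at -235, and Rfc3 held E2F forms at -9 and 1. Promoters were found for 7 of the 10 gate genes, and TTTGAA was in 5 of them. For a list of 43 mitosis genes outside the gate 41 promoters of 39 genes were found, of which 29 held TTTGAA (70.7%) and 7 an E2F form (17.1%). For 39 genes of DNA replication and S phase 34 promoters of 29 genes were found, of which 3 held TTTGAA (8.82%) and 23 an E2F form (67.6%). Among 11849 promoters of all genes tested the shares were 11.9% and 16.9%, and among all 32851 promoters 17.9% and 9.57%. CCAAT was in 29 of the 41 mitosis and 20 of the 34 S phase promoters, and in 38.0% of those of all genes tested. Of 131 genes higher in cycling wells than in other Ncmap-negative wells (tested further on), 97 had a promoter, and 49 of these 112 promoters held TTTGAA (43.8%). No promoter of a clustered histone gene was matched. These are matches of letters, and the lists were made from genes of known cell cycle roles.

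Cycling wells made up 9.85% of the retained wells of plate 1 (32 of 325, 95% exact Clopper-Pearson interval 6.83 to 13.6) and 7.58% of plate 2 (25 of 330, 4.96 to 10.98). The mean was 8.71% ± 1.61 (SD, n = 2), and the intervals of the plates overlapped. The share is set by the gate: it was 11.9% with 2 genes required and 7.03% with 5. The cycling wells of plates 1 and 2 lay in 15 and 14 rows and in 17 columns each, with at most 3 in a column and at most 6 and 4 in a row.

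Every cycling well was negative for Ncmap, a gene of non-compact myelin that marks myelinating Schwann cells. Negative here means under 5 Ncmap reads, and the highest count in a cycling well was 2. Cycling wells were 57 of the 288 Ncmap-negative wells, or 19.8% (15.3 to 24.9), with 22.7% in plate 1 and 17.01% in plate 2. Among the 367 Ncmap-positive wells there were 0, which allows a share of up to 0.817%. Split by Pmp22, a gene of compact myelin, the count was 0 of 130 wells under 25000 CPM and 0 of 237 at or above it. The upper ends of their intervals were 2.80% and 1.54%. A laxer gate of 2 genes placed 6 of the 367 Ncmap-positive wells (1.63%) in the cycling class, against 72 of 288 Ncmap-negative wells. With 1 read per gate gene it was 16 of 367 (4.36%) against 70 of 288. Intervals and limits are over wells and cover counting error only, and the wells of a plate come from the same pooled pups.

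The label was checked against marker lists, counting a well when 3 or more genes of a list had 5 or more reads. The Schwann list (among its genes Sox10, S100b, Erbb3, Foxd3, Cdh19 and Gfra3) was met by 49 of 57 cycling wells and 201 of the 231 other Ncmap-negative wells. Sox10, the lineage-defining factor, reached 5 reads in 55 cycling wells. Lists for endothelial, immune, pericyte or smooth muscle, neuronal, skeletal muscle and fibroblast-like cells were each met by 0 of 57 wells. With 3 wells taken as the most that a count of 0 allows, the limit is 5.26%. Pecam1, Cdh5, Ptprc, Myh11, Pdgfra and Rbfox3 had no read in any cycling well. Single markers of these lists were found: Cspg4, of pericytes, reached 5 reads in 15 of 57 cycling and 23 of 231 other Ncmap-negative wells, and Cd68, of macrophages, in 5 of 57 and 5 of 231. Egfl7, of endothelium, did so in 5 of 57 and 33 of 231, and Dcn, of fibroblasts, in 3 of 57 and 7 of 231. Cspg4 stood at 49.0 and 56.4 CPM in the cycling sums of plates 1 and 2, against 23.8 and 5.72 CPM, and Cd68 at 13.1 and 2.15 CPM against 0.794 and 6.81 CPM. The summed level of the pericyte list was 49.0 and 62.2 CPM in cycling wells of plates 1 and 2, against 31.9 and 12.7 CPM in other Ncmap-negative wells, and its part in the results was not tested. All 5 neuronal genes were at 0 in cycling wells. Col3a1 gave 1685 and 2468 CPM of the 1685 and 2502 CPM summed over the fibroblast-like list, and 1525 and 1783 CPM was the sum in other Ncmap-negative wells. The summed Schwann list stood at 1612 and 1191 CPM in cycling wells and 2789 and 2313 CPM in other Ncmap-negative wells, and within it S100b reached 5 reads in 21 of 57 and 89 of 231 wells.

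Depth and gene number differed between the classes. The median cycling well held 598527 reads in plate 1 and 508410 in plate 2, against 467735 and 418999 in other Ncmap-negative wells. Detected genes were 4024 and 3989 at the median, against 2919 and 3189. With each well thinned to 100000 reads, which left out 2 cycling and 12 other Ncmap-negative wells, the medians over both plates were 3614 and 2801 genes. The gate applied to thinned wells was met by 54 of 633. Within the cycling wells the number of gate genes went with detected genes (Spearman's rho 0.606 over 57 wells) and not with reads (rho -0.00165), both given as descriptions. The part of gene number in the results below was not tested.

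Reads were then summed per plate and class, and the gate genes were left out of all tests. Against the sums of all 598 other wells, 499 of 13624 genes passed an adjusted p of 0.05 by edgeR's quasi-likelihood test with Benjamini-Hochberg adjustment (3.66%), of which 292 were higher in cycling wells (2.14%) and 207 lower (1.52%). The other wells include the 367 Ncmap-positive cells, so a second comparison kept only Ncmap-negative wells in both classes. There 137 of 12466 genes passed (1.1%), 131 higher (1.05%) and 6 lower (0.0481%). The 2 comparisons share the cycling sums. The median log2 change over all genes tested was -0.16 and -0.07. In the first comparison 3614 genes, and in the second 1757, had an unadjusted p under 0.05. Leaving out a cycling sum raised the counts, to 5137 without plate 1 and 4806 without plate 2 in the first comparison and to 732 and 315 in the second. The spread then came from the other sums alone. Leaving out an other sum gave 207 (plate 1) and 211 (plate 2) in the second.

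Genes of mitosis belong to the programme by which the wells were chosen, so their counts describe the selection. Of 43 mitosis genes outside the gate, all tested, 35 were higher in cycling wells against all other wells and 25 against other Ncmap-negative wells, and none was lower. The median log2 change of the list was 6.30 and 5.33. Cdc20, which activates the anaphase-promoting complex, stood at 1020 and 1080 CPM in the cycling sums of plates 1 and 2, against 43.6 and 43.5 CPM in other Ncmap-negative wells. The groups did not overlap, and the log2 difference was 4.72 (SE 0.20, adjusted p = 0.00175). Cenpa, the histone variant of the centromere, had 805 and 936 CPM against 15.7 and 19.3 CPM, and Cks1b, which binds CDKs, 580 and 984 CPM against 53.6 and 48.9 CPM. Pbk, a mitotic kinase, had 573 and 935 CPM against 6.80 and 1.32 CPM, with a log2 difference of 7.67 (SE 0.89, adjusted p = 0.0198, or 0.149 with Ncmap-negative wells defined by 0 reads).

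The largest differences past the threshold against other Ncmap-negative wells, at a mean of 100 CPM or more, were those of Pbk, Cdca3, Fbxo5, Hist1h2ap, Hist1h2ao and Pimreg. Fbxo5 (Emi1), an inhibitor of the anaphase-promoting complex, had 180 and 243 CPM in cycling wells against 1.55 and 1.75 CPM, a log2 difference of 7.13 (SE 0.39, adjusted p = 0.00251, or 0.0829 with all 8 sums in the fit). Cdca3, a mitotic entry factor, had 607 and 854 CPM against 8.77 and 2.44 CPM. Its call was lost in 2 of 16 alternatives (adjusted p up to 0.126), and that of Pimreg with 5 gate genes (0.0703). Against all other wells the kinetochore genes Knl1 and Spc25 also led, with 196 and 253 CPM and with 454 and 888 CPM in cycling sums, against 0.0853 and 0.487 CPM and 2.44 and 1.91 CPM. Kif2c and Sgo1 had no read in the other Ncmap-negative wells of either plate, so no fold is given for them. Of the 43 mitosis genes tested, 42 had a higher level in cycling wells within each plate, in either comparison.

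Genes of DNA replication and S phase are close to the gate too, and are likewise a description. Of 39 tested, 23 were higher against all other wells and 10 against other Ncmap-negative wells (among them Dut, Mcm5, Pcna, Rfc4, Rrm1, Rrm2, Slbp, Tipin and Tyms), and none was lower. The list's median log2 change was 2.95 and 2.24. Rrm2, the regulated subunit of ribonucleotide reductase (chromosome 12), had 441 and 325 CPM in cycling sums against 18.9 and 26.3 CPM in other Ncmap-negative wells, a log2 difference of 4.21 (SE 0.31, adjusted p = 0.00408, or 0.131 with all 8 sums in the fit). Pcna, the sliding clamp of DNA polymerases, was already at 142 and 212 CPM in those other wells and at 624 and 506 CPM in cycling wells, a log2 difference of 1.80 (SE 0.26, adjusted p = 0.0400, or 0.0571 with 5 gate genes). The calls of Mcm5, Tipin, Rfc4 and Rrm1 were lost in 5, 3, 2 and 1 of 16 alternatives, that of Tipin also without the cycling sum of plate 2. Tk1, thymidine kinase, had 395 and 646 CPM against 12.5 and 1.44 CPM, with an adjusted p of 0.0619, or 0.0177 with the plate as a block. Tk1 overlaps Afmid. Rfc3 had 278 and 184 CPM against 46.4 and 79.4 CPM and missed the threshold (adjusted p = 0.0822), but was higher against all other wells (adjusted p = 0.0456).

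Clustered histone genes, a group that holds those transcribed while DNA is copied, were uneven. Reverse transcription was primed with oligo-dT, and the part of this priming in the histone levels given here and below was not tested. Of 54 tested against all other wells, 7 were higher and 1, Hist2h2aa2, was lower, against 2.14% and 1.52% of all genes tested. Of 49 tested against other Ncmap-negative wells 5 were higher, against 1.05% of all genes tested. Hist1h1b, counted as higher in both, had no read in the sums of other wells. It entered both tests only through its reads in cycling wells. Hist1h2ap stood at 987 and 1961 CPM in cycling sums against 15.1 and 15.6 CPM, and Hist1h2ao at 923 and 1909 CPM against 14.9 and 15.9 CPM. Both encode near-identical H2A copies, so reads may be split between them. Hist1h2bc had 649 and 474 CPM against 435 and 405 CPM and did not pass (adjusted p = 0.329). Hist1h1c, a linker histone, had 344 and 183 CPM against 255 and 296 CPM, and the groups overlapped.

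At the level of single wells, mitosis and S phase genes did not go together throughout. Cycling wells held a median of 31 mitosis genes with 5 or more reads (range 4 to 41), against 2 (0 to 14) in other Ncmap-negative wells. For S phase genes the median was 16 (0 to 34) against 4 (0 to 31), and for clustered histones 14 (1 to 27) against 5 (0 to 14). At least 10 genes of both programmes were found in 38 cycling wells. A further 16 had 10 mitosis genes but not 10 S phase genes, 1 had the reverse and 2 had neither. Summed levels of the gate and of the mitosis list ran together over the 57 wells (Spearman's rho 0.855), while mitosis and S phase levels did not (rho -0.257, with -0.192 in plate 1 and -0.409 in plate 2). These are descriptions over cells that share plates and animals, and the number of gate genes went with detected genes, as given above.

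**Figure D2:**
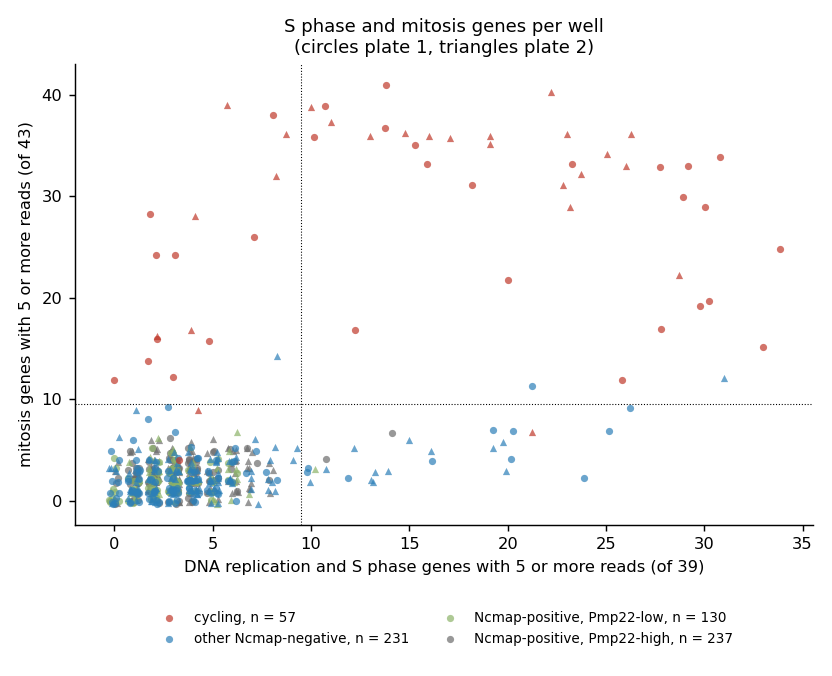
Each point is 1 retained well, placed by its number of S phase genes (horizontal) and mitosis genes (vertical) with 5 or more reads; points are shifted by less than 1 gene so that they do not hide each other, and dotted lines mark 10 genes. Cycling wells (red) fill the upper part, with 38 of 57 past both lines, and 24 other Ncmap-negative wells (blue) lie past the S phase line.

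Cycling wells with fewer gate genes had fewer mitosis and S phase genes at the median. The 11 wells with 3 or 4 gate genes held a median of 12 mitosis and 3 S phase genes at a median of 3018 detected genes. The 9 wells with 6 to 8 held 20 and 4 at 2901 detected genes. The 37 wells with 9 or 10 held 35 and 19 at 4141 detected genes. Histone levels did not rise steadily over these classes, with medians of 4793, 2061 and 5498 CPM. Nor did the number of histone genes, with medians of 12, 9 and 15. Immature marker levels were 4442, 5268 and 5137 CPM. The number of mitosis genes did not overlap between the first class (4 to 17) and the last (22 to 41), while S phase genes did (0 to 28 and 6 to 34).

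S phase genes were also found outside the gate. In 27 wells with fewer than 3 gate genes, at least 10 S phase genes had 5 or more reads, with 13 of these wells in plate 1 and 14 in plate 2. Ncmap was negative in 24 of them. No gate gene reached 5 reads in 14 of the 27, 1 did in 8 and 2 did in 5. The 24 Ncmap-negative ones had 2200 to 9979 CPM of S phase genes (median 5177), against 0 to 14114 CPM (median 4250) in cycling wells. Their histone level was 0 to 1514 CPM (median 259), against 30.9 to 15807 CPM (median 4595) in cycling wells. These wells were picked by their S phase genes, so their values are given without a test. They entered the comparisons as other Ncmap-negative wells.

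Regulators that act on E2F and mitotic promoters gave 1 call in each comparison. Of 20 genes for E2F, DREAM and B-Myb regulators, Foxm1 was higher against all other wells and E2f8 against other Ncmap-negative wells. Over all genes tested 2.14% and 1.05% were higher. Foxm1, which drives mitotic genes, had 46.3 and 71.9 CPM in cycling sums against 0.873 and 0.307 CPM in all other wells (log2 difference 6.56, SE 0.83, adjusted p = 0.0295, or 0.0580 with 5 gate genes). E2f8, a repressor of E2F targets, had 62.0 and 42.1 CPM and no read in either sum of other Ncmap-negative wells. It was tested only through its reads in cycling wells, so neither fold nor p is given. E2f7 (16.4 and 29.2 CPM) and Mybl2 (B-Myb, 22.1 and 27.6 CPM) stood at under 0.1 CPM in those wells and were not called. They too entered the test only through their reads in cycling wells, so neither fold nor p is given. The members with the highest mean level did not pass. Tfdp1, the partner of E2F, had 60.9 and 81.9 CPM against 25.5 and 47.3 CPM (adjusted p = 0.388), and E2f5 15.9 and 87.4 CPM against 46.3 and 45.2 CPM.

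D cyclins and their kinases gave no call between cycling and other Ncmap-negative cells. Ccnd1 (cyclin D1) had 663 and 547 CPM in cycling sums and 853 and 892 CPM in other Ncmap-negative wells, a log2 difference of -0.40 (SE 0.17, adjusted p = 0.382). In Ncmap-positive wells it stood at 613 and 593 CPM where Pmp22 was low, and under 100 CPM in both plates where Pmp22 was high. Cdk4 stood at 895 and 844 CPM against 785 and 822 CPM (adjusted p = 0.621). Ccnd2 was at 0.654 and 11.1 CPM against 105 and 59.8 CPM and did not pass (adjusted p = 0.286). Over all genes tested 1.05% were higher against other Ncmap-negative wells and 0.0481% lower. Across 11 tested D cyclins, CDKs and CDK inhibitors, 2 were higher there and none lower.

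Both were INK4 inhibitors, proteins that block CDK4 and CDK6. Cdkn2c (p18) had 231 and 319 CPM in cycling sums against 61.0 and 38.9 CPM, a log2 difference of 2.59 (SE 0.34, adjusted p = 0.0281, or 0.0613 with 5 gate genes). Cdkn2d (p19) had 362 and 654 CPM against 105 and 100 CPM, a log2 difference of 2.44 (SE 0.33, adjusted p = 0.0302). The CIP/KIP inhibitors ran otherwise. Cdkn1a (p21) had 131 and 273 CPM in cycling sums and 225 and 184 CPM in other Ncmap-negative wells, so the groups overlapped (adjusted p = 0.954), while each sum of Ncmap-positive wells held at least 1673 CPM. Against all other wells it was lower (log2 difference -3.11, SE 0.41, adjusted p = 0.0314).

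Cdkn1c (p57), a marker of pro-myelinating cells, differed in level among the classes of other wells too. It stood at 251 and 208 CPM in cycling sums, 1901 and 861 CPM in other Ncmap-negative wells, 3546 and 2224 CPM in Ncmap-positive wells with low Pmp22 and 99.0 and 56.7 CPM in those with high Pmp22. The cycling sums lay below both sums of the first 2 classes of other wells. Against other Ncmap-negative wells the log2 difference was -2.46 (SE 0.38) with an adjusted p of 0.0503, just short of the threshold, and -2.36 with an adjusted p of 0.00503 with the plate as a block. Over 16 alternatives the log2 difference ran from -2.93 to -1.79 and the adjusted p from 2.08e-11 to 0.0655. Against all other wells it was lower (log2 difference -2.22, SE 0.32, adjusted p = 0.0396), but not with a gate of 2 genes (log2 difference of -0.98, adjusted p = 0.356). The share of wells with 5 or more Cdkn1c reads was 62.5 and 52.0% in cycling wells and 47.7 and 61.5% in other Ncmap-negative wells, so shares overlapped where sums did not.

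**Figure D3:**
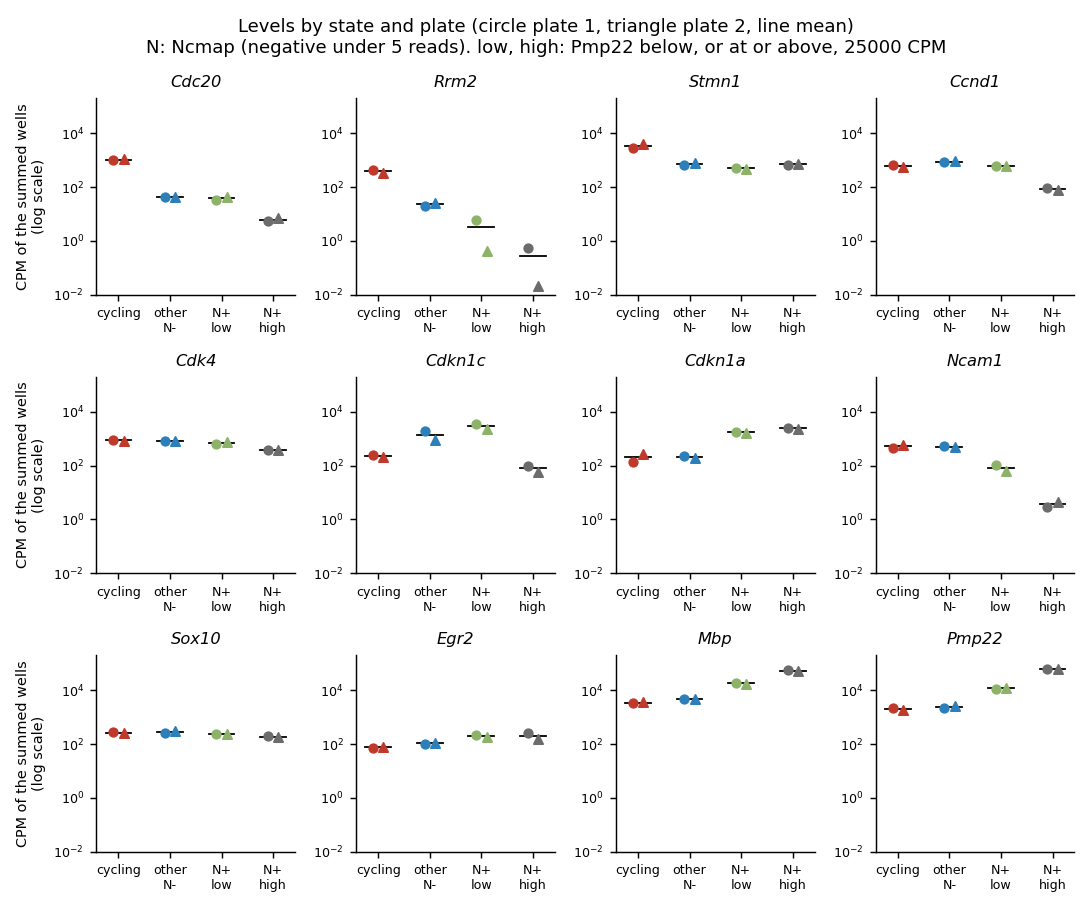
CPM of 12 genes (log scale, the same in every panel) in the summed wells of each plate, for cycling wells, other Ncmap-negative wells (other N-) and Ncmap-positive wells with Pmp22 below (N+ low) or at or above 25000 CPM (N+ high). Cdc20, Rrm2 and Stmn1 are highest in cycling wells, Ccnd1, Ncam1 and Pmp22 have no call between cycling and other Ncmap-negative wells, and Cdkn1c lies between 208 and 251 CPM in cycling wells and between 861 and 1901 CPM in the wells beside them.

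Chromatin and growth-associated proteins were mostly higher. This list is close to the gate too and was chosen with earlier results of these data known, so its counts are a description. Of 24, 17 were higher against all other wells and 15 against other Ncmap-negative wells, and none was lower. Over all genes tested 2.14% and 1.05% were higher. The median log2 change of the list was 2.26 and 2.17. Hmgn2, a nucleosome-binding protein, had 3476 and 5154 CPM in cycling sums against 760 and 814 CPM in other Ncmap-negative wells (log2 difference 2.58, SE 0.23, adjusted p = 0.00827). Stmn1 (stathmin), which destabilises microtubules, had 2832 and 3854 CPM against 681 and 758 CPM (log2 difference 2.34, SE 0.21, adjusted p = 0.00809). The tubulins Tuba1b and Tubb5 had 3413 and 4229 CPM and 4279 and 5785 CPM, against 897 and 921 CPM and 1816 and 1928 CPM. These 4 genes were detected with 5 or more reads in at least 96.9% of cycling wells of each plate. Hmgb2, a DNA-bending protein, rose further, from 142 and 98.7 CPM to 1944 and 2914 CPM, and the histone variant H2afz from 532 and 470 CPM to 2815 and 3375 CPM. Ezh2, the methyltransferase of the Polycomb complex, had 179 and 250 CPM against 51.1 and 50.5 CPM (adjusted p = 0.0291). Npm1, a nucleolar protein, and Ybx1, an RNA-binding protein, are growth genes that did not pass, with Npm1 at 716 and 434 CPM against 726 and 749 CPM. None of 77 ribosomal protein genes passed in either comparison, and their median log2 change against other Ncmap-negative wells was -0.11.

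Mxd3 was the single member of the Myc, Max and Mxd network that differed. It encodes a Max partner of the group that opposes Myc, and had 470 and 702 CPM in cycling sums against 61.0 and 78.8 CPM, 58.7 and 74.8 CPM and 54.5 and 55.4 CPM in the 3 other classes, in the order of increasing myelin genes. Against other Ncmap-negative wells the log2 difference was 3.19 (SE 0.30, adjusted p = 0.00938). It overlaps Prelid1. Myc itself had 36.8 and 25.1 CPM against 53.3 and 72.0 CPM, a log2 difference of -0.89 (SE 0.47, adjusted p = 0.504). Mxd4 had 57.7 and 2.37 CPM against 140 and 147 CPM (adjusted p = 0.532).

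Markers of immature Schwann cells gave no call between cycling cells and the Ncmap-negative cells beside them. None of 14 tested immature markers passed there, with a median log2 change of 0.20. Ncam1, the adhesion molecule of immature and non-myelinating cells, had 444 and 586 CPM in cycling sums and 516 and 473 CPM in other Ncmap-negative wells, a log2 difference of 0.19 (SE 0.21, adjusted p = 0.812). It reached 5 reads in 54 of 57 cycling wells and 204 of 231 others. Against all other wells, which hold Ncam1 at 163 and 164 CPM, it was higher (log2 difference 1.58, SE 0.20, adjusted p = 0.0295, or 0.0515 with 5 gate genes). Ngfr, the p75 neurotrophin receptor, had 52.0 and 56.3 CPM against 77.3 and 55.1 CPM, and L1cam, an adhesion molecule, 76.9 and 36.6 CPM against 35.6 and 47.2 CPM. Jun had 905 and 538 CPM against 866 and 1234 CPM, and its groups overlapped. Tnc (tenascin C) had 48.8 and 67.5 CPM against 15.4 and 9.66 CPM (adjusted p = 0.177), and passed against all other wells (adjusted p = 0.0435). That call was lost in 4 of 14 alternatives, among them those that left out either of the other sums (adjusted p up to 0.214) and with the plate as a block (0.0778).

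Factors of the pro-myelinating stage gave no call besides Cdkn1c in the first comparison. Sox10 was at 288 and 249 CPM in cycling sums and 266 and 311 CPM in other Ncmap-negative wells, a log2 difference of 0.02 (SE 0.21). Pou3f1 (Oct6), which times the start of myelination, had 55.7 and 126 CPM against 112 and 156 CPM (adjusted p = 0.791). Egr2 (Krox20), the factor of myelin genes, had 71.6 and 80.1 CPM against 103 and 110 CPM; both cycling values lay below, but the log2 difference of -0.36 (SE 0.29) did not pass (adjusted p = 0.708). None of 21 genes for mitogen receptors, their partners and the Hippo pathway passed in either comparison. Among them Erbb3, the neuregulin receptor, had 134 and 123 CPM against 163 and 175 CPM, and Ccn1, a target of YAP and TAZ, 1445 and 2090 CPM against 1958 and 2168 CPM.

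Myelin genes were lower in cycling cells than in all other cells, with no call against the Ncmap-negative ones. Against all other wells, 13 of 16 were lower and none higher, with a median log2 change of -3.70. Over all genes tested 1.52% were lower. Of the 13, Drp2 and Gjb1 had no read in the cycling sums and entered the test only through the other wells. Pmp22 had 2206 and 1908 CPM in cycling sums against 36800 and 34430 CPM in all other wells (log2 difference -4.19, SE 0.15, adjusted p = 0.00244). Among other Ncmap-negative wells it stood at 2244 and 2665 CPM. Both cycling values lay below, but the log2 difference of -0.13 (SE 0.16) did not pass (adjusted p = 0.839). Mbp (myelin basic protein) had 3276 and 3653 CPM in cycling sums and 4720 and 4724 CPM in other Ncmap-negative wells. The groups did not overlap, but the log2 difference of -0.32 (SE 0.14) did not pass (adjusted p = 0.381). Mbp was found with 5 or more reads in every cycling well, from 567 CPM upward. None of 13 myelin genes tested passed there; 10 of the 13 had lower values within each plate, against 39.96% of all genes tested (4981 of 12466) and 63 of the 77 ribosomal protein genes. The median log2 change of the myelin genes was -0.54 against -0.07 over all genes. Prx (periaxin) was among the 10, with 144 and 141 CPM against 305 and 404 CPM (adjusted p = 0.0998).

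**Figure D4:**
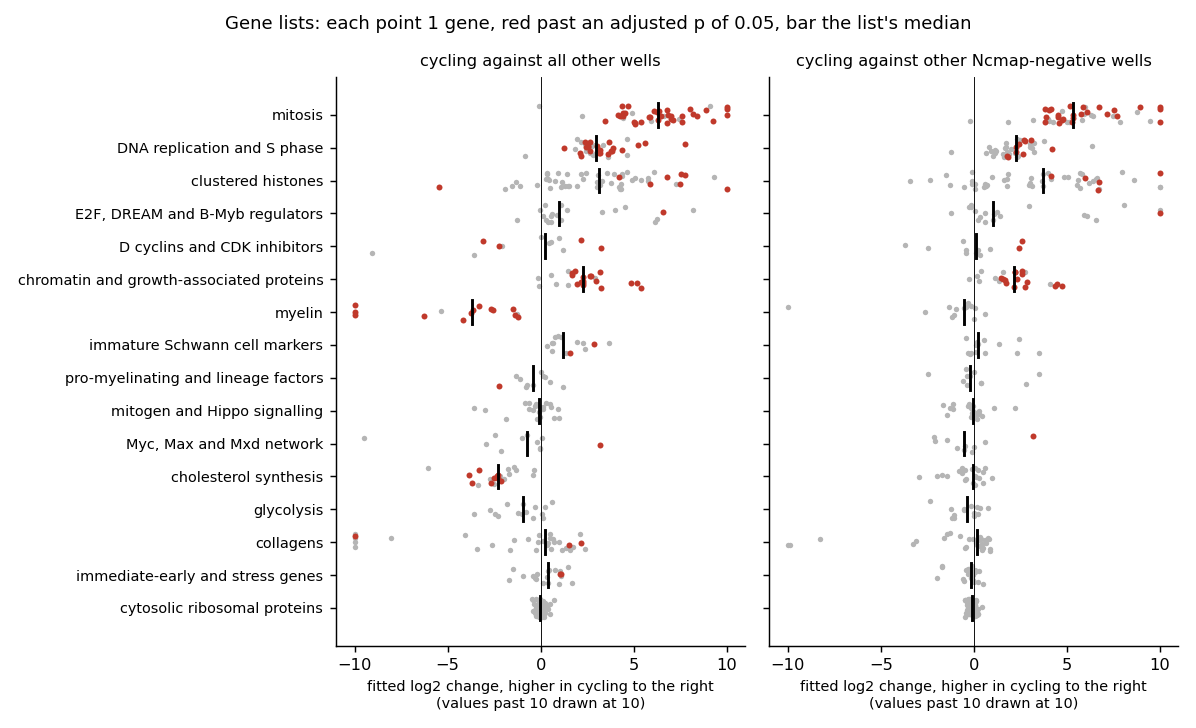
Fitted log2 changes of the tested members of 16 gene lists (points), for cycling wells against all other wells (left) and against other Ncmap-negative wells (right); red points pass an adjusted p of 0.05, the bar is the median of the list, and points in a row are spread vertically for sight. Mitosis, S phase and chromatin lists have medians right of 0 on both sides, while the myelin and cholesterol lists hold 13 and 9 lower genes on the left and 0 on the right.

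Cholesterol synthesis, which feeds myelin membrane, showed the same split. Of 22 genes 9 were lower against all other wells (median log2 change -2.29), where 1.52% of all genes tested were lower. None passed against other Ncmap-negative wells (median -0.07, as over all genes). Fdps, farnesyl diphosphate synthase, had 351 and 327 CPM in cycling sums, 274 and 350 CPM in other Ncmap-negative wells and 2735 and 2878 CPM in Ncmap-positive wells with high Pmp22. No glycolysis gene passed in either comparison. Aldoa (aldolase) had a log2 difference of -1.80 against all other wells (adjusted p = 0.0698), and it passed there in 9 of 14 alternatives, Eno1 in 5 and Ldha in 4. Against other Ncmap-negative wells Aldoa had 499 and 258 CPM against 952 and 895 CPM, with a log2 difference of -1.17 (SE 0.31, adjusted p = 0.222), and passed in 3 of 16 alternatives. Of 32 collagens tested against all other wells 2 were higher (Col3a1 and Col11a1) and 1 lower (Col23a1). Over all genes tested 2.14% were higher and 1.52% lower. None of 29 collagens passed against other Ncmap-negative wells. Col23a1 had no read in the cycling sums and entered the test only through its reads in the other wells, so neither fold nor p is given. The calls of Col3a1, Col11a1 and Col23a1 were lost in 1, 3 and 6 of 14 alternatives. Those of Col11a1 and Col23a1 were also lost when either of the other sums was left out. With the plate as a block both were lost too (adjusted p = 0.0514 for Col11a1). In the second comparison Col1a2 had 1925 and 2000 CPM against 2085 and 1888 CPM. None of 20 immediate-early and stress genes passed in the second comparison. Against all other wells Egr1 and Ier2 of the 20 were higher, while 2.14% of all genes tested were. Both calls were lost when either of the other sums was left out, with adjusted p up to 0.173 for Egr1 and 0.223 for Ier2, and that of Ier2 with the plate as a block (0.0543). Fos, which rises during tissue dissociation, had 7531 and 4906 CPM in cycling sums against 7086 and 7153 CPM.

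By the rule for named genes, the largest decreases past the threshold against all other wells, at a mean of 100 CPM or more, were those of Ncmap, Ecscr, Slc36a2, Pmp2, Emid1 and Sncg. Ncmap was at 0.252 and 0.646 CPM in cycling sums and 2488 and 2501 CPM in all other wells. Pmp2, a lipid carrier of myelin, had 19.9 and 28.7 CPM against 1732 and 1811 CPM, and in other Ncmap-negative wells it was as low, at 25.6 and 27.5 CPM. Ecscr had 1 read in each cycling sum and 241 and 254 CPM in all other wells. It entered the test only through its reads in the other wells, and it overlaps 1700066B19Rik. Slc36a2, an amino acid transporter, had 5.28 and 4.31 CPM in cycling sums, 66.3 and 36.2 CPM in other Ncmap-negative wells and 780 and 649 CPM in all other wells. With 5 gate genes required its log2 difference went from -7.30 to -3.75 and no longer passed (adjusted p = 0.0618). The call of Sncg was lost with 2 and with 5 gate genes (adjusted p up to 0.113).

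Against other Ncmap-negative wells 6 genes were lower. By the rule for named genes these were Emid1, Ctsl and Ndrg1; Angpt2, Pla2g7 and Psen2, all under 100 CPM on average, were named after their values were seen. Emid1, which encodes an extracellular EMI domain protein, had 27.8 and 29.7 CPM in cycling sums, 280 and 157 CPM in other Ncmap-negative wells and at least 1455 CPM in each sum of Ncmap-positive wells. The log2 difference was -2.80 (SE 0.37, adjusted p = 0.0283). Ndrg1, a gene mutated in a demyelinating neuropathy, had 138 and 137 CPM against 380 and 366 CPM, a log2 difference of -1.31 (SE 0.20, adjusted p = 0.0484). Both stood at more CPM in the classes with more myelin RNA. Ctsl (cathepsin L), a lysosomal protease, had 79.2 and 84.9 CPM in cycling sums, 272 and 294 CPM in other Ncmap-negative wells and 118 to 188 CPM in Ncmap-positive wells. Its log2 difference was -1.66 (SE 0.23, adjusted p = 0.0354). Angpt2, a vascular ligand, had 1 and 2 reads in the cycling sums against 3809 and 2205. Pla2g7, which cleaves platelet-activating factor, and Psen2 (presenilin 2) had 0 reads there against 2842 and 1726 and against 2570 and 1405. Angpt2, Pla2g7 and Psen2 entered the test only through their reads in the other wells, so no fold or p is given for them. The calls of Angpt2, Pla2g7 and Psen2 were lost in 2, 4 and 7 of 16 alternatives. Each was lost without the other sum of plate 1, and that of Psen2 also with the plate as a block. The calls of Ctsl, Ndrg1 and Emid1 were lost in 5, 8 and 2 of 16 alternatives. Without the other sum of plate 2, Ctsl and Ndrg1 no longer passed, nor did Ndrg1 without that of plate 1, with adjusted p up to 0.206 and 0.123 over the alternatives.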

How the data were processed

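RNA was measured in 768 wells of 2 plates from pups at postnatal day 5. The table deposited by the authors holds raw counts, 1 column per well. Reads had been aligned with STAR and counted with featureCounts on Ensembl genes. The methods name a human build, whereas the labels' processing notes name GRCm38.p5 and the identifiers are of mouse. Of 25700 identifiers 25587 matched GENCODE vM21, and the 113 others held 0.0916% of the reads.

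Counts of retained wells were summed per plate and class, giving 4 sums per comparison. They were tested with edgeR 4.0.16 in R 4.3.3 (quasi-likelihood test, two-sided, TMM, filterByExpr), adjusted over all genes tested by Benjamini-Hochberg at 0.05. The fit was also run on simulated sums, drawn independently and at a lower dispersion than the real sums had (common dispersion 0.565 and 0.666). That run cannot give the error rate at the real spread. Levels in the text are CPM of sums, and within-plate ratios had 0.5 CPM added. No doublet caller was run. Genes at 0 in a group left the list medians as they were when set at a floor of 3 reads. Members, gene lists and tests were chosen with earlier results of these data known. Named genes were the 10 gate genes, the 4 most abundant tested genes of each list, 6 study markers, and the 6 largest changes in each direction past the threshold at 100 CPM or more, alike in both plates. Other list members were named after their values were seen, and some genes are not reported here. Both sums of a plate share their pooled animals, which pairs them. Their deviations correlated weakly (0.0789 and -0.0205). Alternatives covered the gate, depth, scaling, DESeq2 1.42.0, filter, block and each sum left out.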

Additional observations from a re-analysis of the deposited data

Results flagged for a closer look

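Of the 113 wells left out, which the comparisons do not use, 1 met the gate for cycling wells. It held 4 gate genes in 1399 detected genes and 536987 reads, and lay in no corner. With a minimum of 1000 detected genes it entered, and 58 of 678 wells were then cycling (8.55%).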

How the results depend on the processing

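The mean share of cycling wells was 11.9% with 2 gate genes, 7.03% with 5 and 13.1% with 1 read per gene, and 8.54 to 9.29% under the other alternatives. Without replicate 1 or replicate 2 it was 7.58 and 9.85%. The 499 calls against all other wells became 2424 with DESeq2 (48.1% higher against 58.5%) and 450 to 5137 with a sum left out; the others gave 419 to 656. The 137 calls against other Ncmap-negative wells became 899 with DESeq2 (529 higher), 311 with 8 sums in the fit (154 higher), 388 without a filter (296 higher), 227 with thinned wells and 207 to 732 with a sum left out; the others gave 95 (Ncmap-negative at 0 reads) to 181. The plate as a replicate block gave 511 and 181 calls, and it changed the call of Id2, Aldoa and Col1a1 in the first comparison and of Tk1, Cdkn1c, Knl1 and Spc25 in the second, all to past the threshold. Among genes named outside the rule, it ended the call of Psen2 in both comparisons and those of Tnc, Ier2, Col11a1 and Col23a1 in the first. Of 1106 values of genes named by the rule in the first comparison 1002 stayed on their side of the threshold without a called change of sign, and of 1246 in the second 1170 did; 21 and 63 of these changed sign with neither value past the threshold. A called value changed sign for E2f5 alone, which was -1.46 without cycling replicate 2 and 1.03 without cycling replicate 1. The cause was not tested. With 2 residual degrees of freedom small differences could not be resolved, and when a cycling sum was left out the lone sum was assumed to vary like the others.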
